A study of Mus musculus with 4 samples.

Results

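The sterol and fatty acid synthesis genes are 35 of the 18373 genes in the deposited expression table, and they were chosen by gene symbol. They comprise 18 enzymes of sterol synthesis, 6 regulators of SREBP and sterol transfer, 8 enzymes of fatty acid synthesis, and 3 targets of the liver X receptors (LXR). Expression was measured by RNA-seq in primary liver sinusoidal endothelial cells (LSECs), the fenestrated endothelium that lines the liver sinusoids, from 8-week-old Balb/c mice with no genetic change named in the labels. The cells were released by enzyme perfusion, enriched on a density gradient and with anti-CD146 magnetic beads, cultured for 24 h, and then transfected for 48 h with a control siRNA (NC, 2 libraries) or with siRNA against the long non-coding RNA Airn (siAirn, 2 libraries). The labels place all 4 libraries at day 3. They call the 2 libraries of a group biological replicates but do not say whether these came from separate animals or cultures, so p-values measure only the spread between these libraries. The methods name 2 separate siRNAs against Airn, the labels of both siAirn libraries name the same one, and the siRNA of each library is therefore not settled.

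The counts summed to between 17308382 and 18371959 per library. Airn had 7 and 3 counts in NC and 11 and 9 counts in siAirn, a ratio of siAirn to NC of 1.97 with an exact 95% interval of 0.88 to 4.712 that covers counting error only. A decrease of the targeted RNA in the libraries labelled siAirn was thus not seen at this depth, and each direction given here follows the labels. The paper reports an efficient knockdown with its siRNAs siAirn-1 and siAirn-2. By qRT-PCR it reports lower Vegfr2 (Kdr), Lyve-1 and VE-cadherin (Cdh5), among other genes, after knockdown. From RNA-seq the paper reports lower Flt4, Lyve-1 and Stab1 and higher Gabre, Lama1 and Lama2. The 2 groups stood apart in cell type markers. The summed CPM (counts scaled to the library total) of 10 pan-endothelial markers was 11200 and 10670 in NC against 7988 and 6982 in siAirn, that of 8 LSEC markers 3184 and 3099 against 2458 and 2185, and that of 12 Kupffer cell and macrophage markers 243.2 and 310.2 against 185.9 and 156.2. Markers of other cells were higher in siAirn, at 585 and 748.9 against 827 and 1071 CPM for 12 hepatocyte markers and at 1122 and 1322 against 1375 and 1790 CPM for 10 stellate cell and fibroblast markers. Of the 2 most abundant markers of each list, Eng (2750 and 3025 CPM in NC, 1809 and 1821 in siAirn), Cdh5 (2625 and 2322, then 1794 and 1524) and the LSEC marker Stab1 (657.8 and 650.5, then 468.7 and 423.8) were lower by the test described below. So were the macrophage markers Lyz2 (119 and 130.8, then 93.82 and 74.96) and Cd68 (38.93 and 53.18, then 27.94 and 28.94), with 7 of 11 tested on their list (8.56% of all genes were lower). The hepatocyte marker Apob (35.89 and 38.8, then 54.16 and 67.33) and the stellate cell marker Acta2 (285.9 and 305.3, then 355.4 and 389.1) were higher by the same test, whereas Alb (496.6 and 637.6, then 704.7 and 900.2) and Dcn (257.1 and 377.2, then 313.4 and 472.7) did not pass. All 9 hepatocyte and all 10 stellate cell and fibroblast markers tested had a positive log2 fold change, and 2 and 4 of them passed as higher (8.27% of all genes). After the GC content and length correction described below, 7 LSEC, 5 pan-endothelial, 2 macrophage, 1 hepatocyte and 3 stellate cell and fibroblast markers were called (7.93% of all genes), and Lyz2 and Apob were not. All 10 pan-endothelial markers had a negative log2 fold change, and 8 of them passed as lower (8.56% of all genes). Of the 8 LSEC markers 7 had a negative log2 fold change and 6 passed as lower. The exception was Kdr, which overlapped between groups at 629.8 and 551.9 against 647 and 552.2 CPM. No marker of these 5 lists was at 0 counts in all libraries. The part of these shifts in the results below was not tested. In bulk RNA, fewer cells of a type and less RNA per cell cannot be told apart.

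Cholesterol is built from acetyl-CoA through mevalonate and isoprenoid units to squalene, which is closed into lanosterol and then trimmed and reduced to cholesterol. When sterols in the endoplasmic reticulum are low, SCAP escorts the SREBP transcription factors to the Golgi for cleavage, and the cleaved factors turn on these enzymes together with those of fatty acid synthesis. INSIG proteins hold SCAP back when sterols are plentiful, and oxysterols then activate LXR, which turns on sterol efflux. SREBP-2 acts mainly on sterol genes and SREBP-1c mainly on fatty acid genes. In LSECs, membrane cholesterol is a component of the rafts that border the fenestrae.

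SREBPs bind a sterol response element (SRE) and act with the factors NF-Y and Sp1, so the letters of these motifs were searched on both strands of RefSeq promoter windows (GRCm38.p6, 250 bases before to 50 bases after an annotated start). Windows were found for 27 of the 35 members, 35 windows in all. None was found for Fdft1, Sqle, Fdps, Stard4, Scd1, Scd2, Fads1 and Abcg1. The SRE letters TCACNCCAC stood in 1 of these windows (2.86%), that of Hmgcs1, and in 1.24% of all 32851 windows. The NF-Y letters CCAAT stood in 22 member windows (62.9%) and in 37.4% of all windows, and the Sp1 letters GGGCGG in 27 member windows (77.1%) and in 35.7% of all. The E-box letters TCACGTGA stood in 0 member windows and 0.974% of all, and the LXR element DR4 in 0 member windows and 0.0426% of all. A match is a description of the letters and not a bound site. Only these letters were searched and only within the windows, so a missing match does not show that a site is absent.

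The stretches below show the SRE of Hmgcs1 and the CCAAT box nearest to the start in the members whose RNA differed between groups and that had such a box. Fdft1 and Scd1, which also differed, had no window and were not searched. They are written 5' to 3' on the strand of the gene, and capitals mark the SRE and NF-Y letters, with ATTGG where CCAAT lies on the other strand. The Hmgcs1 stretch lies at chr13:119690154-119690282 on the plus strand, the SRE letters begin 137 bases before the start, and the other capitals are an NF-Y box. The others lie at chr7:143830140-143830194 (Dhcr7, plus), chrX:8193538-8193592 (Ebp, minus), chr13:8885567-8885605 (Idi1, plus), chr8:122443423-122443474 (Mvd, minus), chr9:42264301-42264349 (Sc5d, minus) and chr15:82147109-82147163 (Srebf2, plus), all in GRCm38.p6.
Hmgcs1: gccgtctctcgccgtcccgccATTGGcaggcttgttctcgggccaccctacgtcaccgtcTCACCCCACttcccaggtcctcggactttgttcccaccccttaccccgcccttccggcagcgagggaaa
Dhcr7: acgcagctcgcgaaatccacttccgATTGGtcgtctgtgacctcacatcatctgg
Ebp: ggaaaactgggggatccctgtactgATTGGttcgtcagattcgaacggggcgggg
Idi1: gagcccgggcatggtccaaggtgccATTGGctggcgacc
Mvd: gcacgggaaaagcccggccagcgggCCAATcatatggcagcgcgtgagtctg
Sc5d: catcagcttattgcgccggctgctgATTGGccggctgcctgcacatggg
Srebf2: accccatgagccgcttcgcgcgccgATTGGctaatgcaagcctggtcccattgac
The CCAAT letters stood in 21 of the 27 members with a window, among them members that did not pass the test. Sc5d, which was higher in siAirn, held this box, as did Dhcr7, Ebp, Idi1, Mvd and Srebf2, which were lower. A part of the box in these differences was not tested.

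**Figure D1:**
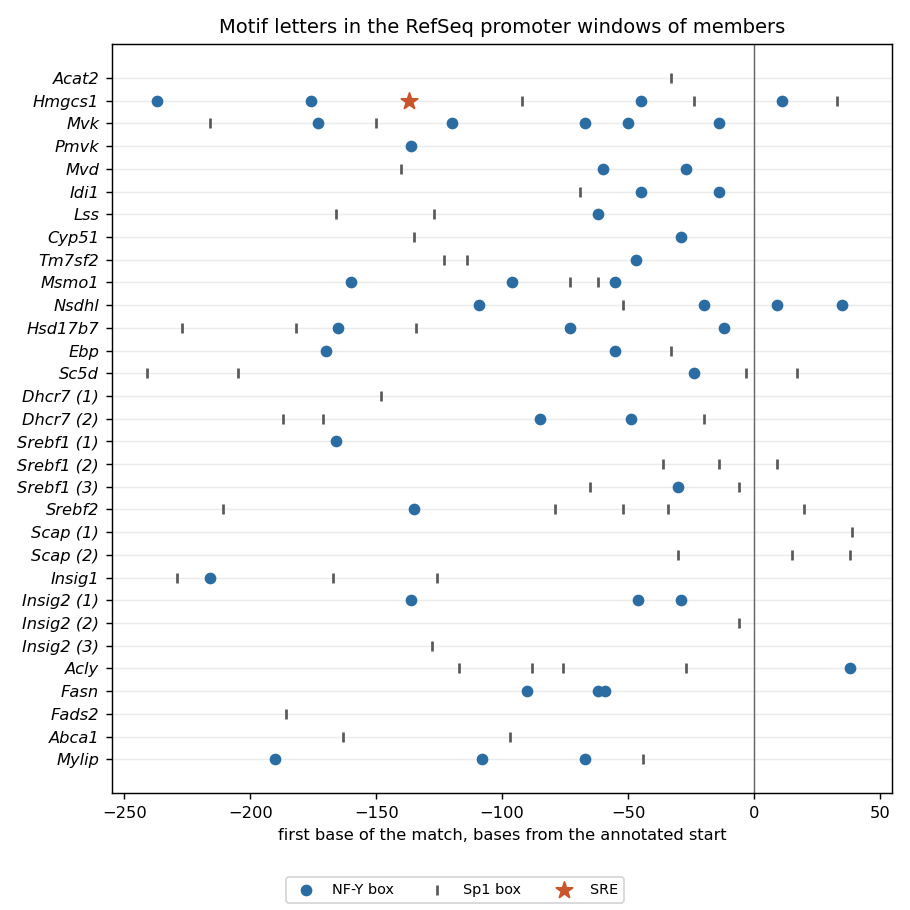
Positions of motif letters in the RefSeq promoter windows of members with a match. The horizontal axis is the distance in bases from the annotated start to the first base of the match, each line is 1 window (numbered where a gene has several), and the symbols mark the NF-Y box, the Sp1 box and the SRE. The SRE letters appear in the Hmgcs1 window only, whereas NF-Y and Sp1 letters appear in members of each branch.

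Levels per transcript length were compared by the deposited FPKM values (reads scaled to transcript length and library size). In NC, Fdps, the synthase of farnesyl diphosphate, had the highest level at 50.86 and 56.08 FPKM. It was followed by Fads1, a desaturase of polyunsaturated fatty acids, at 42.73 and 45.99 FPKM, and by Acly, which makes cytosolic acetyl-CoA, at 42.34 and 41.78 FPKM. Next came Msmo1, which removes a methyl group from the sterol ring, at 31.84 and 36.14 FPKM, Sc5d at 27.19 and 30.69, and Ebp at 25.18 and 25.9. The ranges of Fads1 and Acly were separated by less than 1 FPKM, as were those of several later neighbours in this order. At the other end stood Scd1 at 4.2 and 3.92 FPKM, Lss at 2.59 and 2.71, and Elovl6, an elongase of palmitate, at 1.79 and 1.89. Tm7sf2, a sterol reductase, was at 0 counts in all 4 libraries, which allows up to between 0.166 and 0.175 CPM per library (3 counts), and it was not tested. The sterol enzymes together summed to 267.1 and 294.9 FPKM in NC and to 245.7 and 269.7 in siAirn, so the summed level overlapped between groups. The fatty acid enzymes summed to 142.9 and 144.8 FPKM in NC and to 150.6 and 156.2 in siAirn, without overlap.

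**Figure D2:**
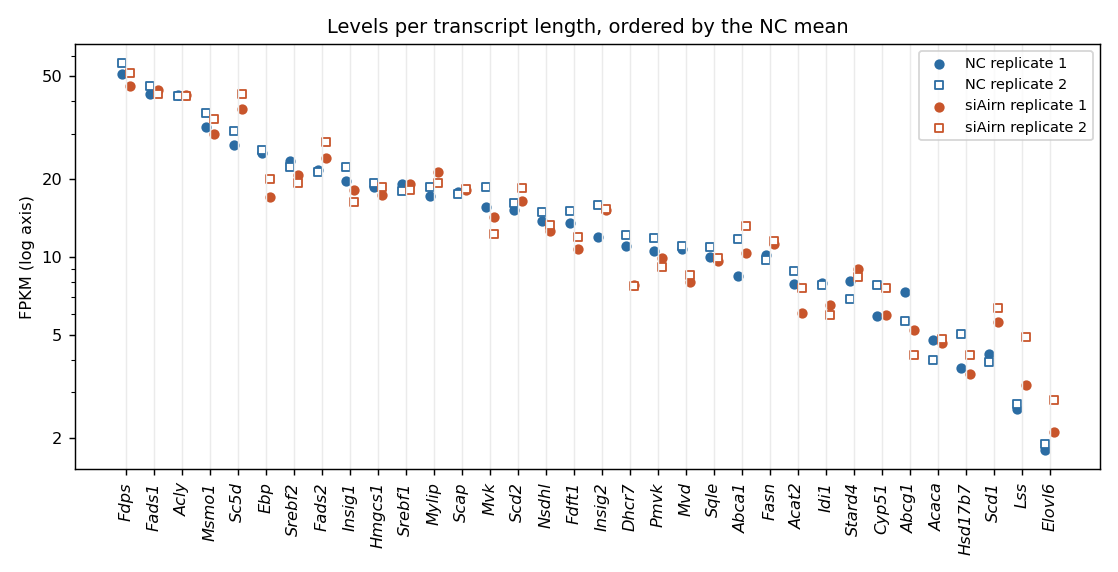
FPKM of the 34 members with counts, on a log axis, ordered by their mean in the 2 NC libraries. Circles are replicate 1 and squares replicate 2, blue for NC and orange for siAirn. Levels run from 56.08 FPKM for Fdps to below 2 for Elovl6 in NC, and the shifts between groups are small beside the span between genes.

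The comparison of siAirn with NC asked which genes of LSECs differ after transfection with the siRNA against Airn. Of the 34 members tested, 8 (23.5%) passed edgeR's quasi-likelihood test at a Benjamini-Hochberg adjusted p under 0.05, against 16.8% of all 13628 genes tested. Lower in siAirn were 6 members, namely the sterol enzymes Dhcr7, Ebp, Mvd, Fdft1 and Idi1 and the regulator Srebf2, and 8.56% of all genes were lower by the same test. Higher were 2 members, Scd1 and Sc5d, and 8.27% of all genes were higher. The largest of these differences was 1.533-fold, and the remaining 26 members tested did not pass. With the threshold of the study's methods, an unadjusted p under 0.05 together with more than 1.4-fold, 4 members passed (Dhcr7, Ebp and Abcg1 lower, Scd1 higher), against 9.96% of all genes. The 2 groups did not overlap for 20 members (58.8%), and for 62.7% of all genes. With 1 NC library left out, the same edgeR test called 40 genes of the whole table (without NC replicate 1) or 0 (without NC replicate 2), so it had little room to call any member, and it called 0 members in both cases, with 11 and 10 at an unadjusted p under 0.05, as were 3506 of 13986 and 3106 of 13913 genes of the whole table. In these fits the log2 fold change of Dhcr7 was -0.687 and -0.547, the log2 fold change of Ebp -0.526 and -0.481, and the log2 fold change of Scd1 0.564 and 0.474. Without siAirn replicate 2, 3 members were called (Dhcr7, Ebp and Fdft1) and 10.4% of all genes, and without siAirn replicate 1, 10 members and 17.3% of all genes. DESeq2's Wald test did not call Idi1, Mvd and Srebf2, and limma on FPKM did not call Fdft1, Idi1 and Srebf2.

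**Figure D3:**
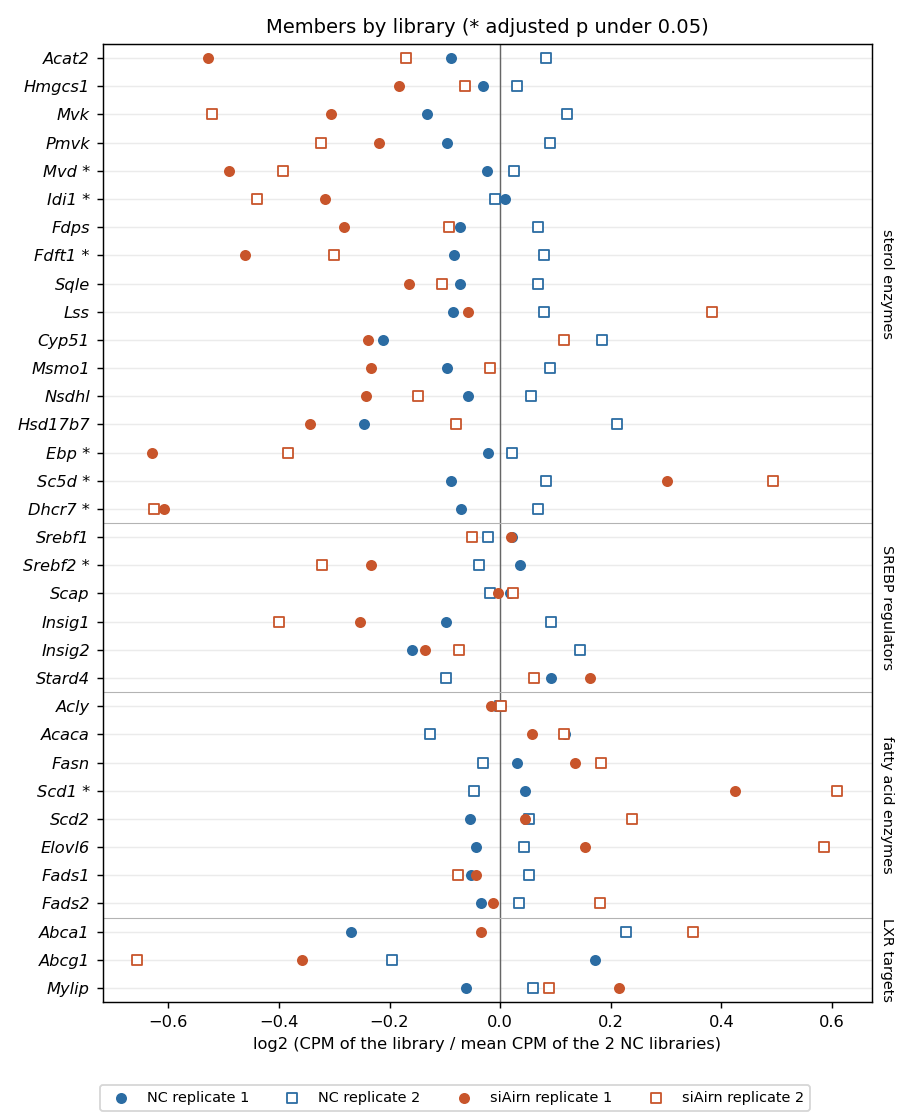
CPM of each library relative to the mean of the 2 NC libraries, on a log2 scale, for the 34 members tested, grouped by branch and in pathway order. Blue is NC, orange is siAirn, circles are replicate 1, squares are replicate 2, and an asterisk marks an adjusted p under 0.05. Most sterol enzymes lie to the left of 0 in siAirn, and Sc5d and Scd1 lie to the right.

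Among the 17 sterol enzymes tested, 15 had a negative log2 fold change and 2 (Lss and Sc5d) a positive one, where 49.9% of all genes were negative. Of these, 5 passed the test as lower and 1 as higher (8.56% and 8.27% of all genes), and 2 passed after the GC content and length correction described below (7.93% of all genes). The groups did not overlap for 12 lower and 1 higher enzymes, where 31.9% of all genes were lower without overlap. The median log2 fold change was -0.21 (-0.363 to -0.138 without single libraries), beside 0.0013 over all genes tested. Because the members were chosen by name with earlier results of these data known, this median is a description and carries no test.

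The steps from acetyl-CoA to isoprenoid units come first. Mvd, the decarboxylase that yields isopentenyl diphosphate, had 17.8 and 18.41 CPM in NC and 12.89 and 13.79 CPM in siAirn. Its groups did not overlap, and it fell by 0.44 on the log2 scale (SE 0.105, edgeR adjusted p = 0.0331), and by 0.24 without passing after the GC content and length correction. Idi1, the isomerase of that product, had 22.06 and 21.78 CPM in NC and 17.59 and 16.17 in siAirn. It fell by 0.38 on the log2 scale (SE 0.098, edgeR adjusted p = 0.0430), and the replicates of each group lay close together. In GENCODE M21, 30.5% of the 50-base windows of Idi1 also occur in another gene, mainly Gm13502, so its count is uncertain. Mvk, the mevalonate kinase, had 25.33 and 30.18 CPM in NC and 22.46 and 19.33 in siAirn, with an edgeR adjusted p of 0.0644 that did not pass, although the likelihood-ratio test, the fits with a replicate block (with or without the correction) and the fit without siAirn replicate 1 called it. The other members of this stretch did not pass either, with log2 fold changes of -0.27 for Pmvk (phosphomevalonate kinase), -0.12 for Hmgcs1 (the synthase that makes HMG-CoA), -0.34 for Acat2 (a cytosolic thiolase) and -0.19 for Fdps. The groups of each of these 4 genes were separate in CPM. With a replicate block Acat2 was called with or without the correction, Fdps only without it and Hmgcs1 only with it. Of the Acat2 windows, 45.9% also occur in Acat3, and 26.7% of the exonic bases of Fdps lie under exons of Gm43738 on the same strand. Acat2 lies on chromosome 17, as Airn does, with 7 annotated genes between them in the RefSeq gene table.

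At the squalene step, Fdft1, the squalene synthase, had 49.43 and 55.33 CPM in NC and 38.06 and 42.51 in siAirn. It fell by 0.38 on the log2 scale (SE 0.092, edgeR adjusted p = 0.0347), with both siAirn libraries under both NC libraries. Ctsb lies over 18.3% of its exonic bases on the opposite strand, and the use of strand in counting is not given in the sources used here, so this count is uncertain. Sqle, the squalene epoxidase, had 26.49 and 29.19 CPM in NC and 24.84 and 25.89 in siAirn, a log2 fold change of -0.14 that did not pass.

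After squalene, Lss closes the ring to lanosterol, and its CPM was 14.88 and 16.69 in NC and 15.16 and 20.58 in siAirn. The groups overlapped in counts but not in FPKM, where NC had 2.59 and 2.71 and siAirn 3.19 and 4.9. The transcript length implied by the 2 deposited values moved with this, from 5.688 and 6.066 kb in NC to 4.835 and 4.234 kb in siAirn. Cyp51, the lanosterol demethylase, had a log2 fold change of -0.05, Msmo1 of -0.12, Nsdhl (a sterol dehydrogenase) of -0.20 and Hsd17b7 (a sterol ketone reductase) of -0.21, and none of these 4 passed. The groups overlapped for Cyp51, Msmo1 and Hsd17b7.

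Of the last steps of the pathway, Ebp, the sterol isomerase, had 41.38 and 42.67 CPM in NC and 27.16 and 32.22 in siAirn. It fell by 0.50 on the log2 scale (SE 0.10, edgeR adjusted p = 0.0211), which is 1.416-fold. Sc5d, the desaturase that acts next, differed in the opposite direction. It had 62.39 and 70.26 CPM in NC and 81.71 and 93.34 in siAirn, and it rose by 0.40 on the log2 scale (SE 0.092, edgeR adjusted p = 0.0301). Dhcr7, the reductase that ends one branch of cholesterol synthesis, had 26.14 and 28.8 CPM in NC and 18.03 and 17.81 in siAirn. It fell by 0.62 on the log2 scale (SE 0.096, edgeR adjusted p = 0.0116), the largest decrease among the members in this fit (after the GC content and length correction that of Abcg1 was larger, -0.56 against -0.53), and none of its 50-base windows occurs in another gene. Dhcr7 was called under all 11 alternatives that kept the 4 libraries, and without either NC library it was not called.

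**Figure D4:**
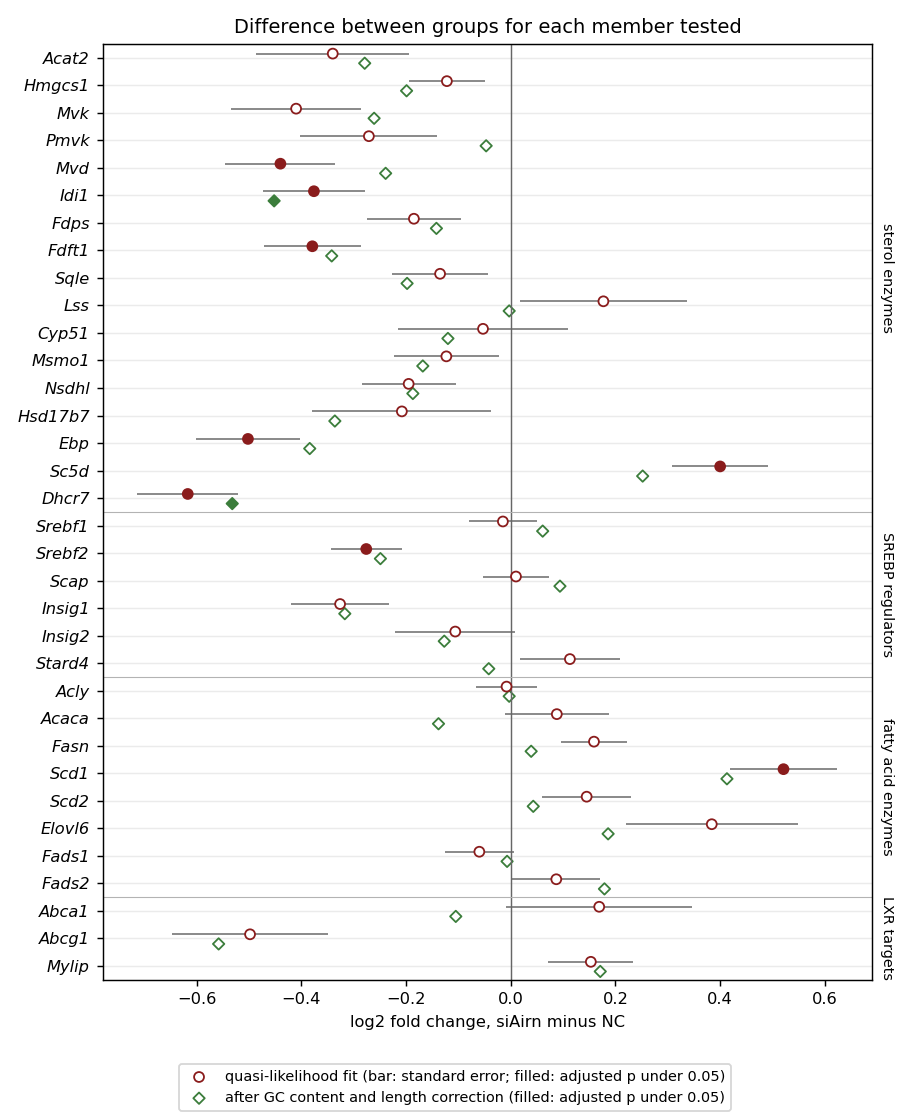
Log2 fold change of siAirn minus NC for the 34 members tested, by branch in pathway order. Circles with bars are the quasi-likelihood fit with its standard error, diamonds are the values after removal of trends with GC content and length, and filled symbols have an adjusted p under 0.05. As circles 8 members are filled, and as diamonds Dhcr7 and Idi1.

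GC content and transcript length moved with the difference between groups over the whole table. Across the 12905 genes with both values, the log2 fold change had a Spearman rho of -0.333 with GC content and 0.364 with length, whereas the difference between the 2 replicates had a rho with GC content of -0.0348 in NC and -0.0138 in siAirn. These are descriptions across genes, which are not independent replicates. Mvd, at 59.03% GC, is among the members richest in GC, and Idi1 (41.86%) and Sc5d (42.87%) are among the poorest. After natural splines of both properties were removed in each library, 2 members were called, Dhcr7 and Idi1, against 7.93% of all genes. Ebp, Fdft1 and Srebf2 then had log2 fold changes of -0.38, -0.34 and -0.25 and just missed the threshold. The sterol enzymes then had a median log2 fold change of -0.20, with 16 of 17 negative, and Sc5d had 0.25 and did not pass. Scd1, at 0.41, just missed the threshold too (edgeR adjusted p = 0.0521).

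Of the SREBP regulators and the sterol carrier, 1 of 6 (16.7%) passed the test, a share close to the 16.8% of all genes. The median log2 fold change was -0.06 (-0.119 to -0.025 without single libraries). Srebf2, which encodes SREBP-2, had 113.3 and 107.6 CPM in NC and 94.04 and 88.36 in siAirn. It fell by 0.28 on the log2 scale (SE 0.068, edgeR adjusted p = 0.0353), and the groups did not overlap. Insig1, which retains SCAP and is itself a target of SREBP, had 50.25 and 57.38 CPM in NC and 45.14 and 40.76 in siAirn. Its groups were also separate, but its edgeR adjusted p of 0.0579 did not pass, whereas the likelihood-ratio test, the fits with a replicate block (with or without the correction) and the fit without siAirn replicate 1 called it. Srebf1 had 78.55 and 76.23 CPM in NC and 78.44 and 74.68 in siAirn, and Scap, the escort protein, 74.41 and 72.52 against 73.3 and 74.62. These 2 genes overlapped between groups, with log2 fold changes of -0.02 and 0.01, and the signs of both changed under other scalings or tests. Insig2 and Stard4, a carrier of cholesterol, overlapped too, at -0.11 and 0.11.

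Of the 8 fatty acid enzymes tested, 1 passed (12.5%, under the 16.8% of all genes). A negative log2 fold change was found for 2 and a positive one for 6, where 49.9% of all genes were negative, and the median was 0.12. Without siAirn replicate 2 this median was 0.05, and without siAirn replicate 1 it was 0.18. Scd1, the desaturase that makes oleate from stearate, had 20.02 and 18.79 CPM in NC and 26.06 and 29.62 in siAirn. It rose by 0.52 on the log2 scale (SE 0.103, edgeR adjusted p = 0.0209), or 1.435-fold, with no overlap. Its paralogue Scd2 was more abundant, at 80.01 and 86.12 CPM in NC and 85.69 and 98.03 in siAirn, and did not pass (log2 fold change 0.15). The 2 genes share 4.66% and 4.01% of their windows.

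Fasn, the fatty acid synthase, had 100.7 and 96.57 CPM in NC and 108.3 and 112 in siAirn. Its groups were separate, with a log2 fold change of 0.16 and an edgeR adjusted p of 0.130 that did not pass. Elovl6 had 10.56 and 11.22 CPM in NC and 12.11 and 16.34 in siAirn, a log2 fold change of 0.38 that did not pass, and its siAirn replicates lay far apart. Acly stayed between 184.7 and 187.1 CPM in all 4 libraries. Acaca, which makes malonyl-CoA, had 41.26 and 34.82 CPM in NC and 39.61 and 41.21 in siAirn, and 52.6% of its windows also occur in Gm5182. Fads1 (-0.06) and Fads2 (0.09) overlapped between groups in CPM, whereas in FPKM Fads2 was separate, at 21.73 and 21.31 in NC against 24.17 and 27.71 in siAirn, a log2 ratio of 0.27. With the GC content and length correction, 3 of the 8 enzymes were negative, Acaca among them (-0.14), and the median was 0.04, closer to that of all genes.

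Of the 3 LXR targets, 0 passed edgeR's quasi-likelihood test (16.8% of all genes), and 1, Abcg1, had an unadjusted p under 0.05 (34% of all genes). Abcg1, which exports sterol to HDL, had 42.02 and 32.61 CPM in NC and 29.1 and 23.69 in siAirn. Its groups did not overlap, and its log2 fold change was -0.50 (SE 0.149, edgeR adjusted p = 0.0631). DESeq2's Wald test, edgeR's likelihood-ratio test, the fits with a replicate block (with or without the GC content and length correction) and the fit without siAirn replicate 1 called it. Abca1, which exports sterol to lipid-poor apolipoprotein, had 81.76 and 115.5 CPM in NC and 96.31 and 125.6 in siAirn, and in each group replicate 2 was the higher. A replicate block called Abca1 as higher, but not with the correction added. Mylip, a ubiquitin ligase for lipoprotein receptors, had 50.25 and 54.67 CPM in NC and 60.91 and 55.74 in siAirn, separate but not past the test. The 2 transporters thus had log2 fold changes of opposite sign, -0.50 and 0.17, and the sign for Abca1 turned after the GC content and length correction (-0.11).

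The implied transcript length, the ratio of the count to the FPKM value scaled by the library total, shows whether the isoforms to which reads were assigned shifted between libraries. Relative to the median shift, it moved by over 1.1-fold with separate groups in 3 of 34 members (8.82%), namely Lss, Insig2 and Fads2. The same held for 3.36% of 10445 genes with a mean of at least 100 counts and at least 1 FPKM in every library. Insig2 went from 2.392 and 2.205 kb in NC to 1.961 and 2.018 kb in siAirn, and Fads2 from 2.76 and 2.938 kb to 2.59 and 2.561 kb. In Fasn it stayed between 9.809 and 9.825 kb. As a result the sign of the Insig2 difference changed with the unit: its log2 ratio was 0.13 in FPKM and its log2 fold change -0.11 in counts.

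**Figure D5:**
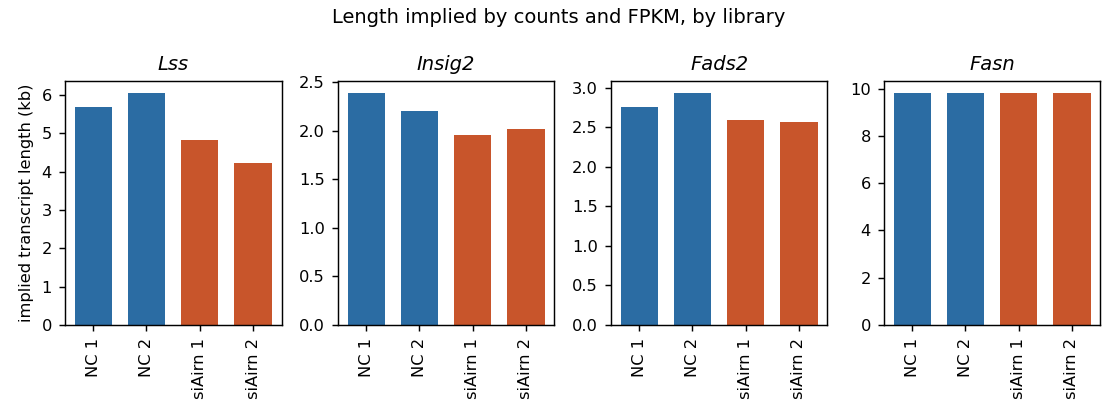
Transcript length in kb implied by the deposited count and FPKM in each library, for the 3 members that shifted and for Fasn. Bars start at 0, blue is NC and orange is siAirn. In Lss the bars are 5.688 and 6.066 kb in NC and 4.835 and 4.234 kb in siAirn, and in Fasn they are level.

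Other genes of the same pathways were counted from lists written by name. Of 70 tested, 3 were higher and 7 lower at an adjusted p under 0.05, or 14.3%, which is below the 16.8% of all genes. Among 9 other isoprenoid and sterol enzymes, 1 was higher and 0 lower (8.27% and 8.56% of all genes), and at any p 5 were higher and 4 lower. After the GC content and length correction that 1 enzyme was still called as higher (7.93% of all genes were called). Among 14 genes of sterol uptake, storage and transport, 5 were lower (35.7%, against 8.56% of all genes) and 0 higher (8.27% of all genes), and 3 were called after the GC content and length correction (7.93% of all genes). Scarb1, the receptor for HDL, had 154.8 and 162 CPM in NC and 120.8 and 125.2 in siAirn, and it fell by 0.36 on the log2 scale (edgeR adjusted p = 0.0145). Lipa, the lysosomal lipase that frees cholesterol from its esters, had 160.7 and 149.4 CPM in NC and 128 and 119.5 in siAirn, and fell by 0.33 (edgeR adjusted p = 0.0258).

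Of 11 genes of SREBP processing and sterol-regulated degradation, 1 was called (9.09%, against 16.8% of all genes), Mbtps2, the protease that makes the last cut in SREBP. It had 40.09 and 38.8 CPM in NC and 51 and 58.51 in siAirn and rose by 0.47 on the log2 scale (edgeR adjusted p = 0.0179). Of 24 other fatty acid genes 3 were called (12.5%). Acsl4, which activates arachidonate, rose by 0.41 (edgeR adjusted p = 0.0116), while Tecr, the reductase of fatty acid elongation, fell by 0.42 (adjusted p = 0.0142) and Acsl5, another acyl-CoA synthetase, fell by 0.33 (adjusted p = 0.0169). After the GC content and length correction, Mbtps2 had 0.29, Acsl4 0.19 and Tecr -0.20, none of which passed, whereas Acsl5 still passed at -0.39. Rnf145, of the SREBP processing list, had not passed at -0.19 but passed after the correction, at -0.29 (edgeR adjusted p = 0.0456). Of 12 other LXR pathway genes, 0 were called by this edgeR test (16.8% of all genes) and 2 had an unadjusted p under 0.05 (34% of all genes).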

How the data were processed

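RNA-seq was analysed in 4 libraries grouped by the labels. The members and gene lists were chosen with earlier results of these data known. Reads were single-end, 50 bases (BGISEQ-500). The submitters' processing notes name BWA, Bowtie2 and RSEM, and hg19 although the cells are murine, so no coordinates were taken from the counts. The deposited estimated counts carry no normalization, and 76.5% to 76.8% are whole numbers. The other deposited values were read as FPKM from the authors, because they scale with count, length and library total, but the header does not name the unit. The authors' group means were not used.

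Rounded counts were tested with edgeR 4.0.16 (R 4.3.3): TMM factors of 0.985 to 1.017, filterByExpr, and the quasi-likelihood test without covariates, with Benjamini-Hochberg adjustment over 13628 genes. CPM uses TMM. The common biological coefficient of variation was 0.0754. Standard errors are those implied by the F statistic. Named are all members, Airn, up to 3 genes with the smallest p from each other pathway list, and the 2 most abundant markers of each list. Some genes under this rule are not reported singly. GC content, length and shared windows came from GENCODE M21, and promoters from RefSeq. On simulated counts, 187 of 200 changed genes were found among 13646 tested (93.5%), with 8 unchanged genes called. That share pools all 200 genes, and the share found for differences as small as those of the members was not tested. Alternatives used DESeq2 1.42.0 and limma 3.58.1 on log2(FPKM + 1) and log2(FPKM + 0.1), other factors and filters, a likelihood-ratio test, a replicate block, a spline correction (5 degrees of freedom each) and leaving out each library. Proteins were not analysed here.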

Additional observations from a re-analysis of the deposited data

How the results depend on the processing

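The share of all genes called moved with the settings and is given in brackets. Of the members, 8 were called under RLE (16.9%) and upper-quartile factors (16.8%) and with the looser and the stricter count filter (11.4% and 18.4%), 6 by DESeq2 (13.2%) and 11 by the likelihood-ratio test (23%). limma called 5 with the pseudocounts 1 and 0.1 (14.9% and 15%), and the GC content and length correction left 2 (7.93%). Leaving out single libraries gave 0 to 10 members called, 0 to 2410 genes in the whole table and 0 to 13 other genes of the pathway. The correction gave 1024 genes in the whole table, 6 other genes of the pathway and 2 members past the 1.4-fold threshold (7.08%), and limma on log2(FPKM + 1) gave 1 such member (6.71%). In the fits without a library, the lone library of a group is assumed to vary like the other group.

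With the replicate number as a block, 16 members, 4841 genes (35.5%) and 25 other genes of the pathway were called, and with the block and the correction 16 members, 4070 genes (31.5%), 27 other genes and 2 members past the 1.4-fold threshold (8.4%). Beyond the members called in the main fit, the block called Mvk, Acat2, Fdps, Insig1, Fasn, Elovl6, Abca1 and Abcg1. With the correction added, Fdps, Fasn, Elovl6, Abca1 and Mvd were not called, whereas Hmgcs1, Msmo1, Hsd17b7, Fads2 and Mylip were. The 2 same-numbered pairs deviated together with r = 0.27, but 2 pairs with no shared source in the labels do not establish pairing.

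The median of the sterol enzymes ranged from -0.363 to -0.138 without single libraries, and that of the SREBP regulators from -0.119 to -0.025, with 0.022 and 0.023 by limma. That of the fatty acid enzymes ranged from 0.052 to 0.181. That of the LXR targets ranged from -0.061 to 0.213, with -0.105 after the correction and -0.094 after it with the block. Some log2 fold changes that did not pass changed sign, and the cause was not tested. After the correction, without and with the block, Lss had -0.003 and -0.007, Srebf1 0.061 and 0.060, Stard4 -0.042 and -0.042, Acaca -0.138 and -0.137, Abca1 -0.105 and -0.094, and the LSEC marker Kdr -0.101 and -0.104. By limma with the pseudocounts 1 and 0.1, Srebf1 had 0.007 and 0.007, Insig2 0.136 and 0.145, and Acly 0.003 and 0.003. Scap had -0.00038 with upper-quartile factors. Without single libraries, the ranges were -0.060 to 0.381 for Lss, -0.241 to 0.158 for Cyp51, -0.420 to 0.039 for Hsd17b7, -0.052 to 0.019 for Srebf1, -0.252 to 0.053 for Insig2, -0.011 to 0.025 for Scap, -0.032 to 0.212 for Acaca, -0.018 to 0.00057 for Acly, -0.013 to 0.180 for Fads2, -0.061 to 0.438 for Abca1, -0.098 to 0.131 for Kdr, and -0.018 to 0.611 for the stellate cell marker Dcn.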
